A study of Mus musculus with 7 samples.

Results

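Aminoacyl tRNA synthetases are the enzymes that load each tRNA with its amino acid, and 36 of their genes were followed from growing mouse myoblasts to myotubes. The members were 20 genes for cytosolic enzymes and 16 for mitochondrial enzymes, whose symbols end in 2, chosen by symbol from a table of 37975 genes. All 36 were present and all 36 were among the 15966 genes that the authors tested. RNA was compared between a pair of samples, and MyoD binding came from another sample. The first RNA sample, titled EV-GM, was polyadenylated RNA of primary myoblasts that carried an empty retroviral vector and were kept under growth conditions. The second, titled EV-2DM, was RNA of myotubes with the same empty vector after 48 hours in DMEM with 5% horse serum. The myoblasts descended from satellite cells, the stem cells of muscle, sorted from mice of 4 to 6 weeks. The labels name no strain, sex or number of mice behind each culture, and the overexpression arm that the protocol mentions was not analysed here. MyoD, the basic helix-loop-helix factor of muscle differentiation, had its binding sites in 2-day myotubes measured by chromatin immunoprecipitation (ChIP), and 4 histone ChIP samples of the series were not analysed here.

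Amino acids are joined to tRNA in both the cytosol and the mitochondrion of an animal cell, each compartment having its own ribosomes. All these enzymes are encoded in the nucleus, and the mitochondrial ones are imported after synthesis. Several cytosolic enzymes sit together in a multisynthetase complex held by the scaffold proteins of Aimp1, Aimp2 and Eef1e1. Uncharged tRNA, which accumulates when an amino acid or its synthetase runs short, activates the kinase GCN2, and the transcription factor ATF4 that is then translated is known to activate genes for amino acid supply, cytosolic synthetases among them. Muscle makes large amounts of protein as it differentiates, and mutations in several synthetase genes cause nerve or muscle disease.

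Each gene had 1 value per sample in FPKM, fragments scaled by transcript length and library size, so that levels can be compared between genes. No difference had a replicate check here, and a call is the authors' own test with a q (their p adjusted over all tested genes) of at most 0.05. Errors are the standard errors (SE) that the authors' test statistics imply, and every log2 value sets the myotube sample over the myoblast sample. The sources used here give no read totals for RNA, and low genes gave a depth ratio of 1.08, myoblasts over myotubes. In the authors' deposited table, 15416 tested genes were above 0 in both samples and had a median log2 fold change of -0.41, so an mRNA that kept its place among the others lay slightly below 0. All 6 markers of differentiated muscle were called higher, among them Myog at 130 and 1207 FPKM. Of 4 myoblast markers, Pax7 and Myf5 were called lower and Des higher, and Myod1 was not called, by the authors' deposited table. Of 20 markers of fibroblasts, endothelium, immune cells, adipocytes, Schwann cells and smooth muscle, 7 were at 0 in myoblasts and 7 in myotubes. These were partly different genes. The summed level of the 20 was 99.5 FPKM in myoblasts and 13.1 in myotubes, and Rgs5 and Cd68 alone reached 10 FPKM in either sample. The part of such cells in the results below was not tested.

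The cytosolic synthetases were more abundant in myotubes as a group, and the mitochondrial ones were not. Summed over the 20 cytosolic genes, the level was 2583 FPKM in myoblasts and 4018 in myotubes, a ratio of 1.56. Summed over the 16 mitochondrial genes it was 409 FPKM and 327, a ratio of 0.80. In bulk RNA, a change in the number of cells that express a gene and a change in the RNA per cell cannot be told apart. Of the cytosolic genes 15 had a log2 fold change above 0, and of the mitochondrial genes 1 did, against 33.4% of the 15416 tested genes above 0 in both samples. That share differed with level. Among tested genes with a mean between 50 and 500 FPKM, 1496 were above 0 and 1917 below. Between 5 and 50 FPKM, 2382 were above 0 and 5442 below.

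**Figure D1:**
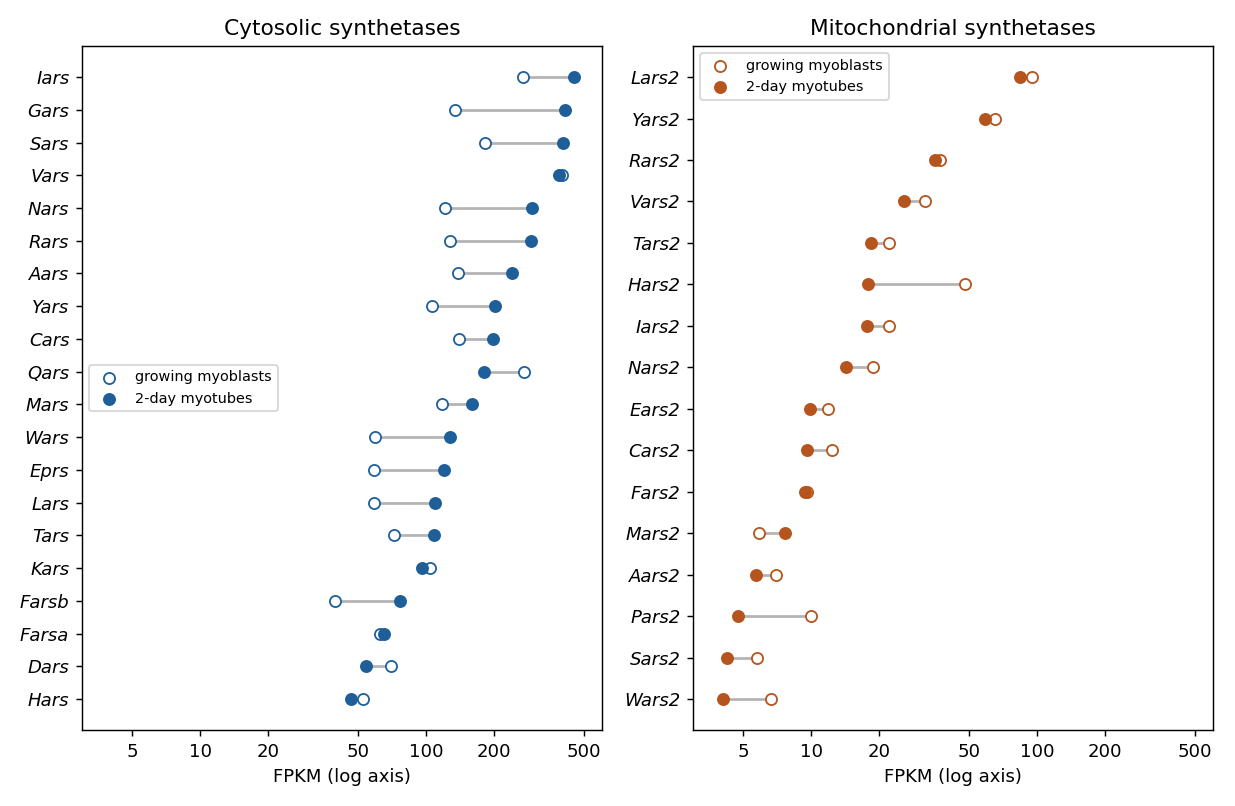
Level of each synthetase mRNA in FPKM on a log axis, with open circles for growing myoblasts and filled circles for 2-day myotubes, 1 value each, ordered by the myotube level. Most cytosolic genes move to the right and most mitochondrial genes to the left, and the cytosolic set lies mostly at the higher levels.

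By the authors' test 4 cytosolic genes were called higher and 0 lower, where 6.52% of all tested genes were called higher. Of the mitochondrial genes 0 were called higher and 1 lower, where 17.3% of all tested genes were called lower. The median of log2((FPKM + 1) in myotubes / (FPKM + 1) in myoblasts) was 0.77 over the 20 cytosolic genes and -0.28 over the 16 mitochondrial genes. On this scale the median was -0.37 over all 15146 tested genes with a mean of at least 1 FPKM, so the mitochondrial enzymes lay close to the general run of genes. Tested genes with a mean between 50 and 500 FPKM, a range chosen after the levels were seen, had a median of -0.13, and those between 5 and 50 FPKM of -0.44. Of the 3470 genes in the first range the authors' test called 318 higher, and of the 7991 in the second it called 1584 lower. After the authors' log2 fold changes were centred on the median of all genes, 10 cytosolic genes were higher and 0 lower, where 10.2% of genes were higher, and 1 mitochondrial gene was lower, where 10.3% were. In the same 2 ranges, centring gave 532 higher of the 3470 and 916 lower of the 7991. At a q of at most 0.1, 7 cytosolic genes were higher, against 7.89% of tested genes, and 1 mitochondrial gene was lower, against 21.6%.

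Rars, which loads arginine and belongs to the multisynthetase complex, was at 128 FPKM in myoblasts and 291 in myotubes. The authors' deposited table gives this rise as log2 1.19 with SE 0.34 and q = 0.00386, the largest rise among the called members. Its locus in the table runs on mm9 chromosome 11 from 35621882 to 35648008. Sars, the seryl enzyme, was at 183 FPKM in myoblasts and 402 in myotubes. The authors' deposited table gives this rise as log2 1.14 with SE 0.36 and q = 0.00880. Its locus lies on chromosome 3 from 108227782 to 108248127. By FPKM among the tested genes, Rars moved from rank 1676 to rank 705, and Sars from 1158 to 483.

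Wars, the tryptophanyl enzyme, was at 59.4 FPKM in myoblasts and 127 in myotubes. The authors' deposited table gives this rise as log2 1.09 with SE 0.27 and q = 0.000575, the smallest q of the cytosolic genes. Yars, the tyrosyl enzyme, was at 107 FPKM in myoblasts and 201 in myotubes. For this rise the authors' deposited table has log2 0.92 with SE 0.30 and q = 0.0133. The loci of Wars, on chromosome 12 from 110098239 to 110132384, and of Yars, on chromosome 4 from 128867003 to 128938648, also hold another tested gene each, U6 and C77080, and reads of such neighbours can be hard to separate. C77080 was far lower than Yars, at 9.5 and 7.52 FPKM. U6 was listed at 31.6 FPKM in myoblasts and at 0 in myotubes. Among the 12 cytosolic genes whose locus holds no other tested gene, 2, Rars and Sars, were called higher, against 6.91% of the tested genes with such loci.

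The sizes of the changes did not follow the calls, because the errors differed. Gars, the glycyl enzyme, had the largest difference of all members, 134 FPKM in myoblasts and 411 in myotubes, yet the authors' deposited table, with log2 1.62, SE 0.75 and q = 0.106, did not call it. Nars, the asparaginyl enzyme, at 121 and 295 FPKM, and Eprs, the joined glutamyl and prolyl enzyme, at 58.9 and 120, had SEs of 0.74 and 0.72. They had a q of 0.212 and 0.331 in the authors' deposited table. Over the 20 cytosolic genes the SE ran from 0.27 to 0.75 with a median of 0.39, and the genes called all had an SE of at most 0.36. Neighbours in the order of the changes, from Gars to Mars, differed by less than their SEs.

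Below the called genes lay others at the edge of the threshold. Lars, the leucyl enzyme, was at 59 FPKM and 109 in the 2 samples, and the authors' deposited table gives log2 0.88 with SE 0.35 and q = 0.0520. Farsb, the beta subunit of the phenylalanyl enzyme, was at 39.4 and 76.3 FPKM, and Iars, the isoleucyl enzyme, at 269 and 451. Their q values were 0.0707 and 0.0821 in the authors' deposited table. Aars, for alanine, was at 138 and 240 FPKM, Tars, for threonine, at 71.9 and 109, Cars, for cysteine, at 140 and 198, and Mars, for methionine, at 117 and 160. All 4 had the larger value in the myotube sample, and the authors' deposited table called none of them. The Mars locus also holds Ddit3, the stress factor CHOP, which was called higher at 15.2 and 59.5 FPKM in the authors' deposited table. After centring, Aars, Cars, Farsb, Gars, Iars and Lars joined the 4 called genes.

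Of the 20 cytosolic genes 6 stood apart from this pattern. Farsa, the alpha subunit of the phenylalanyl enzyme, was at 62.6 FPKM in myoblasts and 64.7 in myotubes. Vars, for valine, was the most abundant synthetase of the myoblast sample at 400 FPKM and was at 386 in myotubes. Its locus also holds D17H6S56E-5, which was called lower at 185 and 18.6 FPKM in the authors' deposited table. Kars, for lysine, was at 104 and 95.3 FPKM, Hars, for histidine, at 52.6 and 46.6, and Dars, for aspartate, at 69.5 and 54.3. Their log2 fold changes, from -0.36 for Dars to 0.05 for Farsa, were smaller than their SEs, which ran from 0.27 to 0.68 in this group. Qars, the glutaminyl enzyme, had the lowest log2 fold change of the cytosolic genes, at 270 FPKM in myoblasts and 181 in myotubes, for which the authors' deposited table gives log2 -0.58 with SE 0.28 and q = 0.120. Relative to the median of all genes Qars was at -0.17, so Dars, Hars, Kars and Vars changed sign with the centring and Qars did not.

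**Figure D2:**
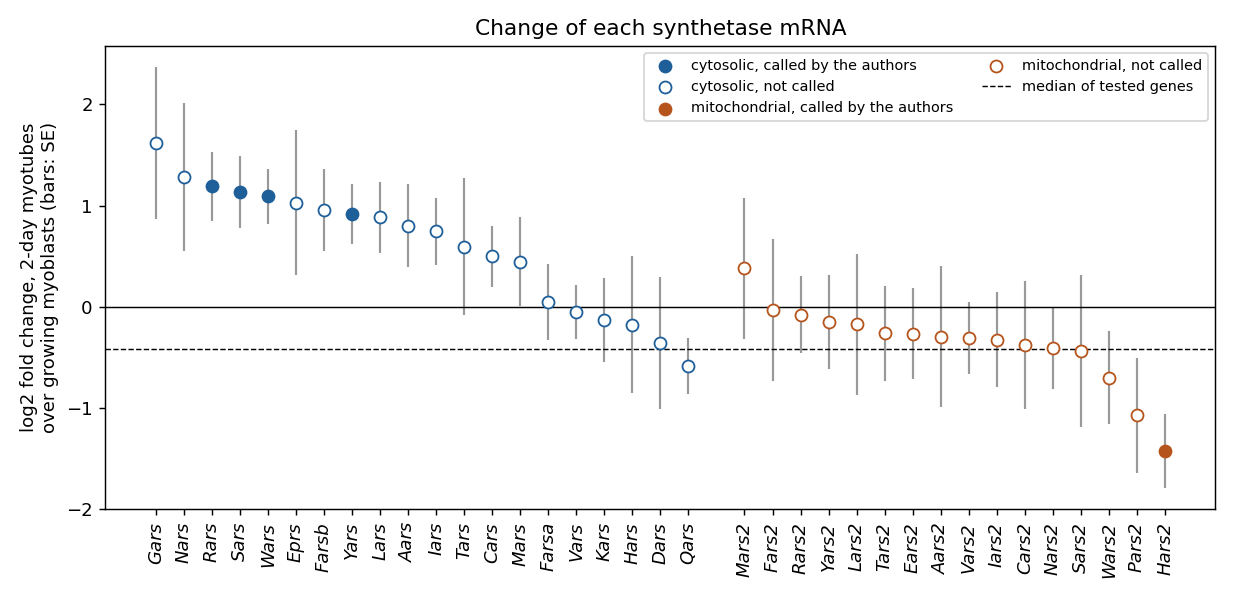
Log2 fold change of each synthetase mRNA from the authors' deposited table, myotubes over growing myoblasts, with the implied standard error as bars. Filled points are called by the authors: Rars, Sars, Wars and Yars above 0 and Hars2 below, while Gars at 1.62 has one of the widest bars and is open.

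The cytosolic genes were also split by structure. The synthetases fall into class I and class II by the fold of the catalytic domain. The 9 class I genes, leaving out Eprs, which joins an enzyme of each class, had a median of 0.74 on the log2(FPKM + 1) scale, with 3 called higher. The 10 class II genes had a median of 0.69, with 1 called higher, where 6.52% of all tested genes were. The 8 genes of the multisynthetase complex had a median of 0.59, running from -0.58 to 1.18, with 1 called higher. The 12 cytosolic genes outside it had a median of 0.85, with 3 called higher. The 1 of 10 and the 1 of 8 lie near the share of all tested genes. The 3 scaffold genes had 0 called. Aimp2 was at 59.7 and 103 FPKM, and the authors' deposited table gives log2 0.79 with SE 0.36 and q = 0.0942. Aimp1 was at 79.7 and 112 FPKM, and Eef1e1 at 62.6 and 55.6.

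The mitochondrial synthetases changed evenly and were low beside the cytosolic ones. Their levels ran from 5.74 to 94.4 FPKM in myoblasts and from 4.09 to 83.8 in myotubes, with medians of 15.6 and 12.05, against cytosolic medians of 112 and 170. Over all tested genes the medians were 17.9 FPKM in myoblasts and 12.7 in myotubes, near those of the mitochondrial set. Lars2, the leucyl enzyme, was the most abundant in both samples, followed by Yars2 at 65.3 and 58.9 FPKM. Sars2 was the lowest in myoblasts at 5.74 FPKM, with 4.24 in myotubes, and Wars2 the lowest in myotubes at 4.09, with 6.64 in myoblasts. The quartiles of the 16 changes lay between -0.37 and -0.17 on the log2(FPKM + 1) scale, beside the -0.99 to 0.21 of all genes.

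Hars2, for mitochondrial histidine, was the exception. It fell from 48.0 to 17.9 FPKM. The authors' deposited table gives log2 -1.43 with SE 0.37 and q = 0.00102. After centring it was still lower, at -1.01 with a Benjamini-Hochberg adjusted p of 0.0331 over all tested genes. In myoblasts it was nearly as abundant as its cytosolic partner Hars, at 52.6 FPKM, while in myotubes Hars stood at 46.6. The genes are listed with the same locus, on chromosome 18 from 36926183 to 36952216, and with Hars2 left out for that reason no mitochondrial gene was called in either direction. Pars2, for proline, had the next largest fold, at 10.01 and 4.76 FPKM. The authors' deposited table, with log2 -1.07, SE 0.57 and q = 0.172, did not call it. Mars2, for methionine, was the 1 mitochondrial gene above 0, at 5.90 and 7.68 FPKM, and the authors' deposited table gives log2 0.38 with SE 0.70 and q = 0.764.

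The remaining mitochondrial genes were at similar levels in both samples. Rars2 was at 37.3 and 35.4 FPKM, Vars2 at 31.8 and 25.6, Tars2 at 22.1 and 18.5 and Iars2 at 22.1 and 17.7. Nars2 was at 18.8 and 14.2 FPKM, Cars2 at 12.4 and 9.55, Ears2 at 11.9 and 9.86, Fars2 at 9.56 and 9.36 and Aars2 at 6.97 and 5.69. Each was lower in the myotube sample by a log2 of 0.41 or less, no larger in size than the median shift of all genes, and none was called.

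Enzymes for the same amino acid could be set side by side in 17 pairs, with Eprs used for both glutamate and proline and Fars2 for both phenylalanyl subunits. In all 17 the log2 fold change of the cytosolic gene was above that of the mitochondrial one, with a median gap of 1.07 and a range of 0.07 to 2.10. The pairs come from the same 2 libraries and share some genes, so they are not independent. The gap exceeded its combined standard error, taken as if the 2 errors were independent, in 14 pairs, and 2 times that error in 4. It was widest for proline, where Eprs stood against Pars2 (2.10, SE 0.92), and next for tryptophan, with Wars at 1.09 against Wars2 at -0.70 (gap 1.79, SE 0.53). Asparagine followed with a gap of 1.69 (SE 0.84) and serine with 1.58 (SE 0.83). The gap was small for methionine, where both Mars and Mars2 were higher, at 0.07 (SE 0.83), for Farsa against Fars2 at 0.08 (SE 0.79) and for valine at 0.26 (SE 0.45). For histidine the gap of 1.25 (SE 0.77) came from the mitochondrial side, with Hars at -0.18 and Hars2 at -1.43.

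**Figure D3:**
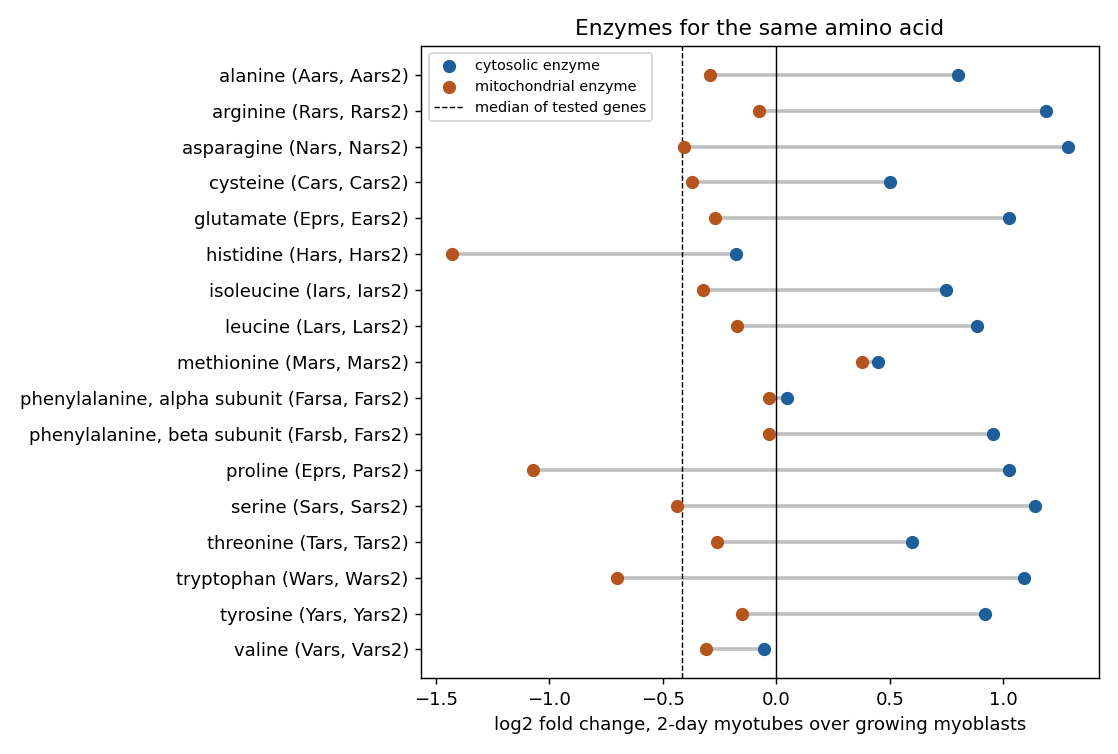
Log2 fold change, myotubes over growing myoblasts, of the cytosolic and the mitochondrial enzyme for each amino acid, joined by a grey line, with the median of tested genes dashed. The cytosolic point lies to the right in all 17 pairs, by 0.07 for methionine up to 2.10 for proline.

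The pairs also showed how far the balance of the 2 sets moved. In myoblasts the cytosolic mRNA was above its mitochondrial partner in 16 of 17 pairs by FPKM, with a median ratio of 6.42. In myotubes it was above in 17 of 17, with a median ratio of 15.1. The exception in myoblasts was leucine, with Lars at 59 FPKM and Lars2 at 94.4, and in myotubes Lars at 109 passed Lars2 at 83.8. The ratio was largest for serine, at 31.9 in myoblasts and 95.0 in myotubes. Gars and Kars have no mitochondrial partner, since each gene encodes both enzymes, and Qars has none because mitochondria make glutaminyl tRNA by another route. Dars was not paired either, as its mitochondrial counterpart is not among the members. Without Gars and Kars the cytosolic median was 0.77.

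The glutaminyl route has Ears2 load glutamate and a transamidase of Qrsl1, Pet112l and Gatc convert it. None of the 3 was called, at 12.1 and 7.71 FPKM for Qrsl1, 10.2 and 12.5 for Pet112l and 11.9 and 14.7 for Gatc. Mtfmt, which formylates the initiator methionyl tRNA of mitochondria, was at 8.63 and 3.48 FPKM, and the authors' deposited table, with q = 0.0770, did not call it. The list of these 4 genes had a median of -0.16. Proofreading factors remove wrong or mirror-image amino acids from tRNA. Of 4 listed 3 were found in the table, and 1, Aarsd1, was called higher, where 6.52% of all tested genes were. Aarsd1 was at 75.5 and 163 FPKM. The authors' deposited table gives it log2 1.11 with SE 0.34 and q = 0.00741. The others were not called: Dtd1 was at 17.2 and 28.2 FPKM and Prorsd1 at 8.43 and 20.2. The list median was 1.1. Aarsd1 clears serine from wrongly loaded alanine tRNA.

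Other steps of translation were listed by compartment in the same way. Over all tested genes with a mean of at least 1 FPKM the median was -0.37. Of all tested genes, 6.52% were called higher and 17.3% lower. Cytosolic elongation factors had a median of 0.26 over 6 genes and mitochondrial translation factors of -0.13 over 9, with 0 called in either direction in both lists. Cytosolic ribosomal proteins had a median of -0.44 over 80 genes, with 0 called higher and 1 lower. Mitochondrial ribosomal proteins had a median of 0.04 over 76 genes, with 0 called. For ribosomal proteins the mitochondrial list thus had the higher median and for synthetases the cytosolic one, in these 2 libraries and with no test of the difference. Eef1a1, which carries loaded tRNA to the ribosome, was the most abundant gene of the elongation list, at 11628 FPKM in myoblasts and 10269 in myotubes.

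**Figure D4:**
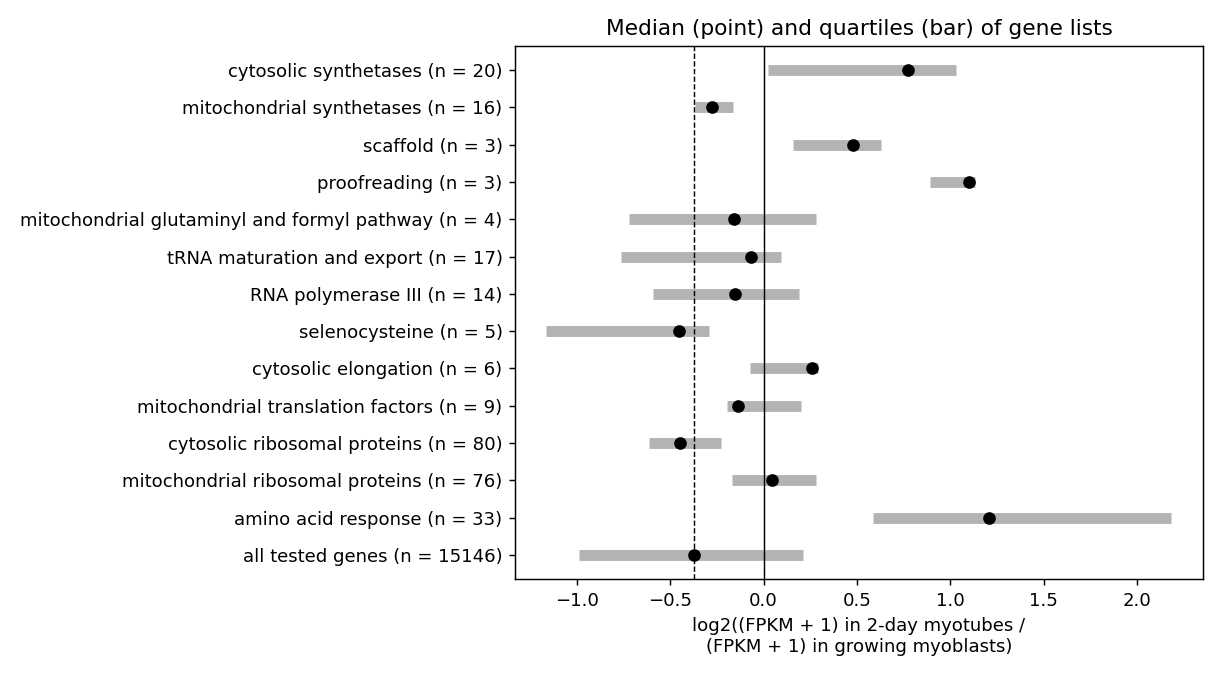
Median (point) and quartiles (bar) of log2((FPKM + 1) in myotubes / (FPKM + 1) in growing myoblasts) for the synthetases and for lists of the same pathway, over tested genes with a mean of at least 1 FPKM. Cytosolic synthetases stand at 0.77 and mitochondrial ones at -0.28, the amino acid response list is the highest at 1.21, and the dashed line marks all tested genes at -0.37.

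Genes of the amino acid response were higher as a list. It holds Atf4 itself and the kinase genes Eif2ak4 and Eif2ak3 as well as genes that ATF4 is known to activate. Of 33 tested, the authors' deposited table called 17 higher and 1 lower, where 6.52% and 17.3% of all tested genes were. The list median was 1.21. This list was chosen with earlier results of these libraries known and several of its genes had been described in them, so it is no independent evidence. By the authors' deposited table the genes that rose most were the transcription factor gene Atf3, from 1.76 to 33.7 FPKM, Trib3, a pseudokinase that restrains ATF4, from 8.17 to 107, Vldlr, a lipoprotein receptor, from 3.28 to 26.2, and Chac1, which breaks down glutathione, from 16.9 to 101. Atf4 itself was at 261 and 521 FPKM. The authors' deposited table, with log2 0.99, SE 0.73 and q = 0.356, did not call it. ATF4 protein was not measured, and its part in the changes of the list was not tested. Eif2ak4, which encodes GCN2, was the gene called lower, from 8.38 to 2.60 FPKM, and the authors' deposited table gives log2 -1.69 with SE 0.49 and q = 0.00425. Myc, another known activator of genes for protein synthesis, was called lower at 55.3 and 24.9 FPKM. The authors' deposited table gives log2 -1.15 with SE 0.45 and q = 0.0438, and the call was lost after centring.

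The promoters were searched for the letters of 4 motifs, since most cytosolic genes had the higher value in myotubes. RefSeq promoters of build GRCm38.p6, from 250 bases before to 50 after the start of the gene, matched 26 members, 12 cytosolic and 14 mitochondrial. Those not matched were Cars, Hars, Lars, Mars, Nars, Rars, Vars, Wars, Hars2 and Pars2. The composite element through which ATF4 acts with a C/EBP partner was searched as TGATGNAA on both strands. It was found in 5 of the 12 cytosolic promoters, Aars, Gars, Iars, Tars and Yars, and in 0 of the 14 mitochondrial ones, while 3.97% of all 32851 promoters of that length hold it. Of the 29 matched promoters of the amino acid response list 9 held it. A site of each is shown with their surroundings because the motif marks 5 cytosolic promoters and no mitochondrial one in this window. Each is read 5′ to 3′ on the strand of the gene, and capitals mark the motif, which for all but Yars is the reverse complement.
Aars, chr8:111033840-111033869, plus strand: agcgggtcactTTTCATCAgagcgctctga
Gars, chr6:55037960-55037989, plus strand: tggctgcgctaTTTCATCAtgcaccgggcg
Iars, chr13:49682126-49682155, plus strand: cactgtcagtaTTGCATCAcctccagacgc
Tars, chr15:11399655-11399684, minus strand: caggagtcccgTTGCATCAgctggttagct
Yars, chr4:129189895-129189924, plus strand: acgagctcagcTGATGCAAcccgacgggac

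At the sites shown, the motif began 30 bases before the start of the gene in Gars and 15 before it in Tars, and at base 4 of the transcript in Yars, base 8 in Iars and base 10 in Aars. All 5 genes had a log2 fold change above 0, from 0.60 to 1.62 with a median of 0.80, and Yars was the 1 of them called higher in the authors' deposited table. The 7 cytosolic genes with a promoter but no such letters, Dars, Eprs, Farsa, Farsb, Kars, Qars and Sars, ran from -0.58 to 1.14 with a median of 0.05, and 4 of them were above 0. Cytosolic genes without a matched promoter are in neither group and ran from -0.18 for Hars to 1.28 for Nars. Rars and Wars, both called higher, are among these, so the split does not cover the whole cytosolic set. The ranges overlap: Sars, called higher, and Eprs and Farsb lay among the genes with the motif. A match is a string of letters and does not show that a factor binds there.

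The E-box CACGTG, which Myc and related factors recognise, was found in 4 of the 12 cytosolic promoters, Aars, Farsb, Iars and Tars, and in 1 of the 14 mitochondrial ones, Ears2, against 7.15% of all promoters. Of the E-boxes favoured by MyoD, CAGCTG was found in Tars and Yars and in Mars2 and Yars2, against 16.3% of all promoters. In Tars and Yars these letters overlap the ATF4 element shown above. CACCTG was found in 0 cytosolic and 4 mitochondrial promoters, Fars2, Lars2, Tars2 and Wars2, against 20.2% of all promoters. All were searched on both strands.

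MyoD peaks lay near some members. A summit fell in the locus or within 10 kb for 10 of the 20 cytosolic and 6 of the 16 mitochondrial genes, and for 38.9% of the 15930 tested genes on the chromosomes with peaks. With summits inside the locus alone, 4 cytosolic genes had a peak, against 27.6% of these genes, and within 50 kb 19 did, against 60%. Among genes whose locus holds no other tested gene, 5 of 12 cytosolic and 3 of 13 mitochondrial genes had a summit within 10 kb, against 32.8%. At a false discovery rate of at most 5%, the shares within 10 kb were 2 cytosolic and 2 mitochondrial genes, against 11.7%. The median locus was 26080 bp over all members and 26498 bp over these tested genes. Of the 4 genes called higher, Rars and Sars had a peak within 10 kb, each more than 8 kb outside the locus. The Rars peak had a false discovery rate of 7.76%, with Pank3 and Mir103-1 also within 10 kb. The Sars peak had a rate of 22.2%, with Celsr2 also within 10 kb. Wars and Yars had none within 10 kb, though both had peaks within 50 kb. The 19 peaks within 10 kb of members held from 7 to 30 tags with a median of 13, against a median of 14 and a maximum of 707 over all 10756 peaks. Of the 19, 3 met the false discovery rate of at most 5%. The values of each peak are the authors' own.

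Among the 26 members whose strand came with a RefSeq promoter, 3 had a summit just upstream of the locus edge where the gene starts. None of these 3 peaks met the 5% false discovery rate. The Kars peak, on mm9 chromosome 8 from 114534821 to 114535618, had 21 tags, 12.8-fold enrichment and a false discovery rate of 12%, with its summit 83 bases outside the locus, and the gene Terf2ip lies within 10 kb of it. The Iars peak, on chromosome 13 from 49777294 to 49777652, had 9 tags, 20.0-fold enrichment and a rate of 12%, 117 bases outside, with Nol8 and SNORA24 within 10 kb. The Vars2 peak, on chromosome 17 from 35804250 to 35804675, had 14 tags, 8.94-fold enrichment and a rate of 23.4%, 59 bases outside, with Gtf2h4 within 10 kb. The authors' deposited table called none of these 3 genes. Of these 3, Iars alone holds the letters of the ATF4 element, and its promoter is shown. In GRCm38.p6 those letters lie just past the start of Iars and a Myc E-box, marked in capitals, before it. The MyoD summit was placed on mm9 alone, so its position beside these letters is not known, and the sequence under the peak was not read. The 250 bases upstream of the Iars start in GRCm38.p6 hold neither CAGCTG nor CACCTG.
Iars, chr13:49681880-49682129, plus strand: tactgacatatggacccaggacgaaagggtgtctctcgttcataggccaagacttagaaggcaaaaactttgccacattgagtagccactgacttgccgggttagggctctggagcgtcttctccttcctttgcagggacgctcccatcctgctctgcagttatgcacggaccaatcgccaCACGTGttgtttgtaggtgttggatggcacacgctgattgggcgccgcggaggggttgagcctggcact

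Other peaks lay inside or beyond the loci. Vars held a peak of 25 tags with a false discovery rate of 2.69%, with D17H6S56E-5 also within 10 kb. Ears2 held 2, of 9 and 25 tags, the larger with a rate of 3.38%, and Ubfd1 lies within 10 kb of both. Fars2, whose locus of 420182 bp was the longest of the members, held 3 peaks, of 26, 10 and 7 tags. Lyrm4 lies within 10 kb of the peak of 26 tags. Qars had the peak with the most tags, 30, at 973 bases past the end of the locus, with Qrich1 also within 10 kb. Hars and Hars2 share 1 peak, of 13 tags, 6324 bases outside their common locus, with Dnd1, Ik and Wdr55 also within 10 kb.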

How the data were processed

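Polyadenylated RNA of 2 samples and MyoD ChIP of 1 sample were used, of 7 in the series, each a group of its own. FPKM values, p-values and q-values were taken as deposited by the authors, in the layout of a Cuffdiff gene table, of which 2 identical copies exist and 1 was used. Cuffdiff, CASAVA 1.7.0, MACS 1.3.7 and the mm9 build are named in the submitters' processing notes. The aligner, annotation release and normalization setting are not stated in the sources used here, nor is the way duplicate sequencing, mentioned in the labels' protocols, was combined. Peaks come from 1 MACS call at a p-value of 1.00e-05 with 8637045 ChIP tags, per the file headers. Tag counts per peak, the p score, fold enrichment over background as a ratio and the false discovery rate in percent are the authors' values, per the file headers.

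SE was the size of the log2 fold change divided by the authors' test statistic. Recomputing p from that statistic gave the deposited p-values to within 2.68e-06. Medians used a pseudocount of 1 FPKM and tested genes with a mean of at least 1 FPKM. Centring subtracted the median log2 fold change and adjusted p by Benjamini-Hochberg over all tested genes, with genes at 0 in a sample keeping the authors' p. Members were all named. Statistics are given for those called and for the extremes of change in each compartment, while most extremes of level are given in FPKM alone. Of each other list up to 4 called genes per direction are named, some of them in FPKM alone. Members and lists were chosen with earlier results of these data known. Ddit3, C77080, U6 and the other genes sharing or flanking loci, genes at the edge of the threshold, and list members not called were named after their values were seen. Locus and peak coordinates are as deposited, and promoter coordinates count from 1. A further promoter sequence is not reported here. Computation used Python 3.11.15, pandas 2.3.3 and scipy 1.17.1.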

Additional observations from a re-analysis of the deposited data

How the results depend on the processing

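With 1 value per condition no library could be left out and no replicate spread exists, so a median was taken as moved where it differed by over 0.1 on the log2 scale. No paired analysis was possible because each group has 1 sample. Cytosolic genes called higher numbered 7 at a q of at most 0.1, 10 after centring on the median of tested genes and 2 in unshared loci, where mitochondrial genes called lower numbered 0. The cytosolic median was 0.59 as a mean and 1.14 centred, the mitochondrial one -0.17 with a pseudocount of 10 and 0.094 centred, and the gap 0.91 with that pseudocount and 0.93 between means. Cytosolic genes with a MyoD peak numbered 4 for summits in the locus, 19 within 50 kb, 2 at a false discovery rate of at most 5% and 5 of 12 in unshared loci, and mitochondrial genes 11, 2 and 3 of 13 for the last 3 settings. Background shares were 27.6%, 60%, 11.7% and 32.8% for the locus, 50 kb, the false discovery rate and unshared loci. Centring gave medians of 0.85 for the scaffold, 0.21 for the mitochondrial glutaminyl and formyl genes, 1.47 for proofreading, -0.080 for selenocysteine, 0.31 for tRNA maturation and export, 0.22 for RNA polymerase III, 0.63 for cytosolic elongation, 0.24 for mitochondrial translation factors and 1.58 for the amino acid response. Centring called 10.2% of genes higher and 10.3% lower. It gave 1 higher call for the scaffold (Aimp2), 2 for proofreading, 1 for RNA polymerase III and 1 for cytosolic elongation. It gave 0 lower calls for selenocysteine, tRNA maturation and RNA polymerase III. By its construction it turned uncalled values between 0 and the median positive: Dars 0.058, Hars 0.24, Kars 0.29, Vars 0.36, Aars2 0.12, Cars2 0.042, Ears2 0.15, Fars2 0.38, Iars2 0.091, Lars2 0.24, Nars2 0.0090, Rars2 0.34, Tars2 0.15, Vars2 0.10, Yars2 0.26 and Eef1e1 0.24. Absolute depth is unknown, so no interval is given for a low level.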

Other observations

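Making and handling of the tRNA itself was described by 3 further lists, with most members not called. Among all tested genes, 6.52% were called higher and 17.3% lower. Of 14 genes of RNA polymerase III, which transcribes tRNA genes, the authors' deposited table called 0 higher and 1 lower, and the median was -0.15 on the log2(FPKM + 1) scale. The gene called lower was the subunit gene Polr3f, at 19.5 FPKM in growing myoblasts and 8.82 in 2-day myotubes, with log2 -1.14, SE 0.44 and q = 0.0427 from the authors' deposited table. Maf1, the repressor of that polymerase, was at 163 and 228 FPKM and was not called. It was the 1 gene of the list that was higher after centring, with a Benjamini-Hochberg adjusted p of 0.00309 over all tested genes, and it is named here after its value was seen.

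Of 17 tested genes of tRNA maturation and export, the authors' deposited table called 0 higher and 2 lower, and the median was -0.06. Over all tested genes, 6.52% were called higher and 17.3% lower. Pop1, a subunit of ribonuclease P, which trims the leading end of tRNA, was at 63.0 and 23.2 FPKM, with log2 -1.44, SE 0.41 and q = 0.00337 from the authors' deposited table. Tsen34, of the endonuclease that removes tRNA introns, was at 97.9 and 57.2 FPKM, with log2 -0.77, SE 0.24 and q = 0.00879 from the authors' deposited table. Of 5 genes for the selenocysteine tRNA and its use, 1 was called lower, Pstk, the kinase of seryl tRNA, at 63.2 and 25.7 FPKM with log2 -1.30, SE 0.48 and q = 0.0322 from the authors' deposited table, and the list median was -0.45. None of these 4 lower calls remained after centring.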
